A study of Homo sapiens with 10 samples.

Results

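The respiratory chain is built in the inner mitochondrial membrane from 5 complexes whose subunits are mostly encoded in the nucleus. Complexes I and II feed electrons from NADH and succinate into ubiquinone, complex III passes them to cytochrome c, complex IV reduces oxygen, and complex V, the ATP synthase, uses the resulting proton gradient. Each complex needs its subunits in fixed proportions, and complex II is the one without any subunit encoded in mitochondrial DNA. The members described here are the nuclear genes of these complexes, found by symbol (NDUFA, NDUFB, NDUFC, NDUFS and NDUFV genes, SDHA to SDHD, UQCR genes, COX4 to COX8 genes and ATP5 genes) with a mean of at least 5 FPKM over 10 libraries. FPKM is the number of fragments scaled by transcript length and by the mapped fragments of the library, so levels of different genes can be set side by side. There were 81 such members among 25593 listed entries, out of 90 entries with a matching symbol. By symbol 38 were in complex I, 4 in complex II, 9 in complex III, 12 in complex IV and 18 in complex V.

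The libraries came from U2OS, a human osteosarcoma line, carried as CRISPR/Cas9-derived lines. The groups were p53 KO-labelled cells with SET siRNA (n = 2) or control siRNA (n = 2), and p53 WT-labelled cells from the control construct with SET siRNA (n = 3) or control siRNA (n = 3). SET, which shields histones from acetylation and interacts with p53, was the siRNA target, and RNA was taken after 96 h. Both lines came from transfected cells that were selected and screened as clones, and the study describes 1 line per genotype. The study's own description gives SET as what the CRISPR construct targeted but calls the resulting line a p53 knockout, so the groups here follow the sample labels. Libraries are called biological replicates with no word on separate cultures, so each p-value rests on the spread among these libraries alone, which may be technical. How many SET siRNAs were used, and their sequence, is not stated.

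SET itself averaged 14.9 ± 0.0302 FPKM in KO-labelled cells with SET siRNA and 164 ± 8.22 FPKM in KO-labelled cells with control siRNA. In WT-labelled cells it averaged 12.5 ± 0.656 FPKM with SET siRNA and 124 ± 2.64 FPKM with control siRNA (SD, n as above). Of 7 mesenchymal markers 6 reached 1 FPKM, against 1 of 3 epithelial, 0 of 4 blood and 0 of 3 endothelial markers. These markers moved with SET siRNA as well. The summed FPKM of the 7 mesenchymal markers was 1475 to 1610 with SET siRNA and 1971 to 2088 with control siRNA in KO-labelled cells, and 1193 to 1309 with SET siRNA and 1885 to 1932 with control siRNA in WT-labelled cells. SPARC fell by 1.44 in KO-labelled and 1.45 in WT-labelled cells and COL1A1 by 0.78 and 0.89, while the epithelial EPCAM, at 1.72 to 4.12 FPKM in group means, rose by 0.91 and 0.84 on the log2 scale. Their part in the members' responses was not tested. The deposited FPKM intervals implied 14288107 to 21774804 fragments per library, a rough estimate that treats their width as counting error alone. The median half-width of those intervals over members was 4.85 to 5.99% of FPKM. The 2 KO-labelled control libraries stood further apart than any other replicate pair, with a median member difference of 9.02%, against 4.12 to 8.5% in the other pairs. Library 2 of that pair held the lowest value of 24 members and the highest of 14.

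Not every matching symbol names a subunit. COX4NB is the older symbol of a subunit of the endoplasmic reticulum membrane complex, ATP5S is coupling factor B, ATP5SL is an assembly factor of complex I, and NDUFC2-KCTD14 is a read-through entry. ATP5EP2 and UQCRHL are near-copies of ATP5E and UQCRH, and reads of such pairs can be split between them, so both are uncertain. Without these 6 entries 75 members remained, which are called subunits here. NDUFA4 carries a complex I symbol but is now placed in complex IV, and COX7A2L is a supercomplex factor. Both stay among the 75 and are counted by symbol, NDUFA4 with complex I and COX7A2L with complex IV. The rule does not catch NDUFAB1, the acyl carrier protein of complex I, or CYC1, the cytochrome c1 of complex III. Subunits encoded in mitochondrial DNA lie outside it as well.

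Summed over the 75 subunits, the genes gave between 12172 and 13156 FPKM in the 10 libraries, or 2.38 to 2.53% of all FPKM. Member means ran from 8.3 FPKM for ATP5S and 11.7 FPKM for NDUFV3, just inside the limit, to 653.5 FPKM for COX7B. By complex, NDUFB9 was the highest of complex I at 439.0 FPKM, SDHB of complex II at 114.4 FPKM, UQCRHL of complex III at 319.4 FPKM and ATP5E of complex V at 648.0 FPKM. The lowest were NDUFV3, SDHC at 32.8 FPKM, UQCRB at 16.6 FPKM, COX4NB at 26.7 FPKM and ATP5S. These extremes count all members by symbol. Among the 75 subunits alone the highest of complex III was UQCRH at 261.4 FPKM. The lowest of complexes IV and V were then COX7A2 at 166.7 FPKM and ATP5L at 67.9 FPKM. Just outside stood ATP5L2, a copy of the ATP5L gene for the g subunit, at 1.0 FPKM.

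Tissue-restricted isoforms were at or near 0. COX4I2, the lung form of COX4, and COX7B2 were listed at 0 in all 10 libraries, and COX6A2, COX6B2, COX7A1, COX8C and NDUFA4L2 stayed under 0.5 FPKM in every library. The read-through entry ATP5J2-PTCD1 reached 0.961 FPKM in 1 library. Their widely expressed partners carried the level, with COX4I1 at 453.7, COX6A1 at 272.7 and COX8A at 576.6 FPKM. ATP5G1, ATP5G2 and ATP5G3 encode the same mature c subunit of the ATP synthase ring. ATP5G2 gave 57.3% of their summed FPKM in KO-labelled cells with SET siRNA and 56.7% with control siRNA, and 53.6% in WT-labelled cells with SET siRNA and 54.9% with control siRNA.

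SDHB was the member that varied most, with a coefficient of variation of 29.3% over the 10 libraries, against a median of 9.05% over members. SDHB (chromosome 1, 17345217 to 17380665 in the files, whose build is not stated) is the iron-sulfur subunit of succinate dehydrogenase, which carries electrons from the flavin of SDHA to the membrane anchors SDHC and SDHD, where ubiquinone binds. In KO-labelled cells SDHB had 79.9 and 92.2 FPKM with SET siRNA, against 149 and 155 FPKM with control siRNA. In WT-labelled cells it had 76.2, 83 and 87.2 FPKM with SET siRNA, against 132, 133 and 156 FPKM with control siRNA. Every SET siRNA library lay below every control library, and the groups did not overlap in either line, as was the case for 67.5% of all entries tested in KO-labelled and 64.3% in WT-labelled cells. SDHB fell by 0.82 in KO-labelled cells (SE 0.099, adjusted p = 0.0003 by limma) and by 0.76 in WT-labelled cells (SE 0.081, adjusted p = 5.67e-05) on the log2 scale of FPKM + 1. Of all 14813 entries tested, 2.09% fell as far or further in KO-labelled cells and 2.96% in WT-labelled cells. The difference between the lines' responses was -0.06 with a 95% interval of -0.34 to 0.23.

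In the main fit, which used all 10 libraries, the other complex II genes were not called lower in either line. SDHA had 42.5 and 40.4 FPKM with SET siRNA against 47.6 and 42.5 FPKM with control siRNA in KO-labelled cells. In WT-labelled cells SDHA had 57.7, 57.9 and 61.5 FPKM with SET siRNA against 61.3, 60.2 and 61.2 FPKM with control siRNA. The log2 differences for SDHA were -0.12 (95% interval -0.25 to 0.02) in KO-labelled and -0.04 (-0.16 to 0.07) in WT-labelled cells, neither called. SDHD, with differences of -0.16 (-0.32 to 0.00) and -0.03 (-0.16 to 0.10) in the same order of lines, was not called either. Over the other settings of the fit the differences in KO-labelled cells ran from -0.20 to -0.04 for SDHA and from -0.27 to -0.06 for SDHD. Whether SDHA or SDHD was called there depended on single KO-labelled control libraries. SDHC rose in WT-labelled cells, to 36.6, 36.4 and 36.5 FPKM with SET siRNA against 29.8, 31.0 and 30.6 FPKM with control siRNA (0.25, adjusted p = 0.000294 by limma). In KO-labelled cells SDHC had 33.8 and 32.5 FPKM with SET siRNA against 30.2 and 30.8 FPKM with control siRNA, and was not called (0.12, adjusted p = 0.0613 by limma).

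The makeup of complex II transcripts shifted with these values. SDHB made up 31.2 and 34.5% of the complex II FPKM in KO-labelled cells with SET siRNA, against 44.9 and 44.3% with control siRNA. The share in WT-labelled cells was 29.98, 30.9 and 32.5% with SET siRNA, against 42.5, 42.4 and 46.8% with control siRNA. The sum over the 4 genes was 262 ± 7.63 FPKM with SET siRNA and 341 ± 12.9 FPKM with control siRNA in KO-labelled cells, a ratio of 0.767. In WT-labelled cells the sum was 264 ± 8.21 FPKM with SET siRNA and 319 ± 11.9 FPKM with control siRNA, a ratio of 0.826. No other complex sum moved this much, with ratios of 0.952 to 1.07 in KO-labelled and 0.955 to 1.11 in WT-labelled cells. The complex II sum rests on 4 genes, and SDHB, the only 1 called lower in the main fit, gave 42.4 to 46.8% of it with control siRNA. The other sums cover 8 to 37 genes.

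**Figure D1:**
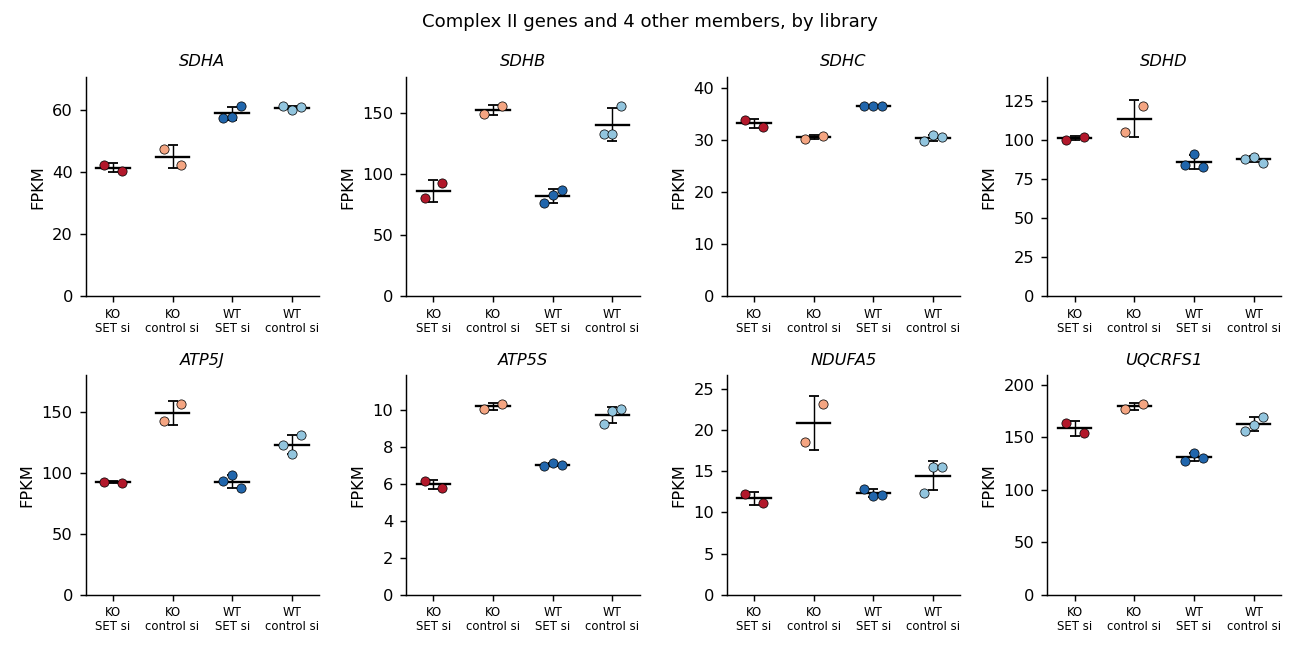
FPKM of the 4 complex II genes and of ATP5J, ATP5S, NDUFA5 and UQCRFS1 in each library, by line and siRNA, with each y axis starting at 0. Points are libraries, bars are the mean and SD of a group, and SDHB, ATP5J and ATP5S stand lower with SET siRNA in both lines while SDHA and SDHD differ mainly between the lines.

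The sequences just before the start sites of these genes are shown because nuclear respiratory chain genes are known as targets of NRF1, ETS-family factors such as GABPA, and YY1, while the members moved apart. Each run holds the 200 bases before the start in RefSeq, build GRCh38.p14, read 5′ to 3′ on the gene's strand. Capitals mark matches on either strand to GCGCA and GCGC with any single base between them (NRF1), the letters CCGGAAG (ETS) or AAGATGGCG (YY1). In the main fit SDHB, ATP5J (now ATP5PF) and UQCRFS1 were called lower with SET siRNA in both lines, and SDHA and SDHD in neither. The runs lie at chr1:17054033-17054232 (minus strand), chr21:25735055-25735254 (minus strand), chr19:29213152-29213351 (minus strand), chr5:218120-218319 (plus strand) and chr11:112086673-112086872 (plus strand).
SDHB: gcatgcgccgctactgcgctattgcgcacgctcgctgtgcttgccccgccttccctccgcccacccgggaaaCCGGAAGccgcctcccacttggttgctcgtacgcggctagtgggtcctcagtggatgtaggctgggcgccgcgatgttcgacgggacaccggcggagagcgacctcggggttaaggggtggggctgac
ATP5J: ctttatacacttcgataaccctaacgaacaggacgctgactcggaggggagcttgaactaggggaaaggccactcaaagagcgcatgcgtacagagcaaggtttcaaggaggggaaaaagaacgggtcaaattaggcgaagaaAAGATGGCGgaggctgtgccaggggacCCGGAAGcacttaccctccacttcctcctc
UQCRFS1: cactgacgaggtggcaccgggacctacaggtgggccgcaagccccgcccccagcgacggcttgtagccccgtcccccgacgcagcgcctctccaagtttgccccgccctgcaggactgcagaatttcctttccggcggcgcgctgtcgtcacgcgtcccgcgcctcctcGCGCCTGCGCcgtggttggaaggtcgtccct
SDHA: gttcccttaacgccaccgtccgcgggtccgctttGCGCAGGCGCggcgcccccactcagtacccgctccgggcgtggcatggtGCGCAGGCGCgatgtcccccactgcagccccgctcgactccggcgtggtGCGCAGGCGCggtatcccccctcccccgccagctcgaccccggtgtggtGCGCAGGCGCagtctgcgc
SDHD: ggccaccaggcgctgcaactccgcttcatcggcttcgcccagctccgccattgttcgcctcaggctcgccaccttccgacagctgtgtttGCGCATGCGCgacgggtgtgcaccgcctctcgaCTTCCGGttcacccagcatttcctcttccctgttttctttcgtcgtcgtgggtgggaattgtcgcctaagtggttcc

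The SDHB run holds a single ETS match and SDHA a row of 4 NRF1 matches, at -166, -117, -68 and -19 from the start. SDHB also has a YY1 match at position 11 after the start, past the printed run but inside the 300-base window counted below. ATP5J holds an ETS and a YY1 match, SDHD an NRF1 and an ETS match, and UQCRFS1 a single NRF1 match. Among the 65 members with an entry in the table of 300-base windows (250 before to 50 after the start), 15 held the NRF1 letters (23.1%), 20 the ETS letters (30.8%) and 8 the YY1 letters (12.3%). Over all 27305 promoters in that table the shares were 6.28, 10.7 and 1.85%, and over the 8086 promoters of genes with a mean of at least 5 FPKM they were 13.1, 21.3 and 4.56%. Matches were counted for each motif alone, and an ETS and a YY1 match can share the letters AAG. Of the 8 members called lower by SET siRNA in WT-labelled cells and found in the table, 2 held NRF1, 3 ETS and 2 YY1 letters, against 1, 2 and 2 of 12 called higher and 12, 15 and 4 of 45 not called. A match is a description of letters in a window and no evidence of binding.

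Across all members the response to SET siRNA was small. In KO-labelled cells 11 of 81 members were called at an adjusted p below 0.05, or 13.6%, with 4 higher and 7 lower, while 37.6% of all tested entries were called (19.8% higher, 17.9% lower). In WT-labelled cells 26 of 81 were called, or 32.1%, with 17 higher and 9 lower, while 54.8% of all entries were called (30.8% higher, 24% lower). The median log2 change of members was 0.03 in KO-labelled and 0.01 in WT-labelled cells, against 0.02 and 0.04 over all entries tested, and its sign turned under quantile normalization in KO-labelled (-0.016) and median-of-ratios scaling in WT-labelled cells (-0.040). Within 0.25 of zero lay 71 of 81 members in KO-labelled and 70 of 81 in WT-labelled cells, while 60.7 and 54.2% of all entries did.

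The split in WT-labelled cells depended on the scaling, with 13 members higher and 14 lower after median-of-ratios scaling. The count in KO-labelled cells depended on single libraries. It was 27, with 14 higher and 13 lower, without KO-labelled control library 1, and 7 without KO-labelled SET siRNA library 2. Such a fit leaves 1 library in its group, whose spread is then taken from the rest.

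**Figure D2:**
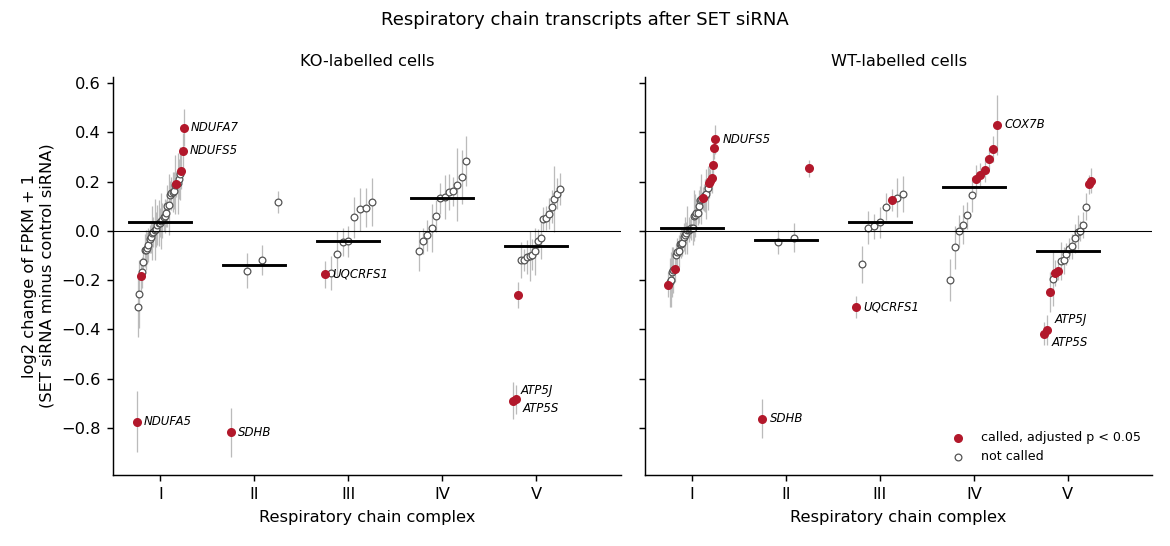
log2 change of each member, SET siRNA minus control siRNA, by complex in KO-labelled (left) and WT-labelled cells (right), with the standard error as a grey line and the median of each complex as a black bar. Filled points were called at an adjusted p below 0.05, and SDHB is the lowest point in both panels.

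In complex I, of 38 members, KO-labelled cells had 4 called higher and 2 lower, while 19.8 and 17.9% of all entries were. WT-labelled cells had 7 called higher and 2 lower, while 30.8 and 24% of all entries were. Under median-of-ratios scaling the counts were 4 and 4 in KO-labelled and 4 and 3 in WT-labelled cells, and without KO-labelled control library 1 they were 9 and 5 in KO-labelled cells. NDUFS5, an accessory subunit on the intermembrane side of the membrane arm, had 426 and 416 FPKM with SET siRNA against 353 and 320 FPKM with control siRNA in KO-labelled cells. The values in WT-labelled cells were 425, 463 and 464 FPKM with SET siRNA against 341, 332 and 371 FPKM with control siRNA. It rose in both lines, by 0.33 (adjusted p = 0.00749 by limma) and 0.37 (adjusted p = 0.000633), KO-labelled cells first. NDUFA7, an accessory subunit of the arm that oxidises NADH, rose by 0.42 in KO-labelled cells (adjusted p = 0.00265 by limma), to 56.3 and 53.6 FPKM against 43.3 and 38.5 FPKM. In WT-labelled cells NDUFA7 rose by 0.21 (adjusted p = 0.0161 by limma). NDUFA8 (0.24 in KO-labelled and 0.19 in WT-labelled cells) and NDUFC2 (0.19 and 0.34), both of the membrane arm, completed the 4 members called higher in both lines. The share of all entries called higher in both lines is not given here, so that count has no background to stand against. Of the 4, NDUFS5 alone kept its call in both lines in every setting of the fit, while NDUFA8 lost it in 5 settings in KO-labelled and 3 in WT-labelled cells, NDUFC2 in 4 in KO-labelled and NDUFA7 in 3 in WT-labelled cells. NDUFC2 lies over its whole length of 11873 bases within the read-through entry NDUFC2-KCTD14, which fell by 0.16 in WT-labelled cells (a call lost in 4 settings), so reads of the pair cannot be told apart with certainty.

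Core subunits around the redox centres of complex I moved little. NDUFS1, NDUFS3, NDUFS7, NDUFS8 and NDUFV1, which hold flavin or iron-sulfur clusters or lie beside them, had log2 differences between -0.13 and 0.19 in KO-labelled and between -0.16 and 0.01 in WT-labelled cells, none called. NDUFV2, another core subunit, fell in KO-labelled cells to 57.5 and 57.9 FPKM with SET siRNA, against 63.3 and 68.2 FPKM with control siRNA (-0.19, adjusted p = 0.0405 by limma). This call was lost in 11 other settings of the fit. In WT-labelled cells NDUFB8 (0.27) and NDUFS4 (0.20) also rose and NDUFB10 fell (-0.22).

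NDUFA5, an accessory subunit next to the quinone-reducing core, fell in KO-labelled cells. It had 12.3 and 11.2 FPKM with SET siRNA against 18.6 and 23.2 FPKM with control siRNA (-0.78, adjusted p = 0.00132 by limma). In WT-labelled cells it had 12.9, 11.99 and 12.1 FPKM with SET siRNA against 12.4, 15.5 and 15.6 FPKM with control siRNA, and was not called (-0.21, 95% interval -0.44 to 0.02). The KO-labelled control libraries were higher than all others. The entry LOC100652957, which overlaps NDUFA5 by 7095 bases, had 20.3 ± 1.55 FPKM with SET siRNA and 35.7 ± 1.31 FPKM with control siRNA in KO-labelled cells (-0.79, adjusted p = 0.00345 by limma), and without stranded counting reads of the pair cannot be told apart.

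In complex III, of 9 members, the Rieske iron-sulfur protein UQCRFS1 was the single one called lower, in both lines. Of all entries 17.9% were called lower in KO-labelled and 24% in WT-labelled cells. UQCRFS1 is described first. It had 164 and 154 FPKM with SET siRNA against 177 and 182 FPKM with control siRNA in KO-labelled cells (-0.18, adjusted p = 0.03 by limma). The values in WT-labelled cells were 128, 135 and 130 FPKM with SET siRNA against 156, 162 and 169 FPKM with control siRNA (-0.31, adjusted p = 0.000345 by limma). The groups did not overlap in either line, as was the case for 67.5% of all entries tested in KO-labelled and 64.3% in WT-labelled cells. The UQCRFS1 call in KO-labelled cells was lost in 4 other settings of the fit. The core proteins UQCRC1 and UQCRC2 had log2 differences of 0.05 and -0.04 in KO-labelled and 0.01 and 0.13 in WT-labelled cells, and UQCRC2 was called there (adjusted p = 0.0427 by limma). The UQCRC2 call was lost in 11 other settings, median-of-ratios scaling among them, with adjusted p up to 0.214. The small subunits UQCRQ, UQCRH, UQCR10, UQCR11 and UQCRB were called in neither line.

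In complex IV, 6 of 12 members rose and 0 fell in WT-labelled cells, with a median log2 change of 0.18, while 30.8% of all entries rose and 24% fell. COX7B, a small transmembrane subunit, had 678, 695 and 730 FPKM with SET siRNA against 463, 459 and 661 FPKM with control siRNA. The third control library stood close to the SET siRNA libraries, and the rise of 0.43 (adjusted p = 0.0136 by limma) was lost without control library 1 or 2. COX6C rose by 0.33 to 183, 212 and 198 FPKM with SET siRNA, against 151, 158 and 160 FPKM with control siRNA (adjusted p = 0.000605 by limma). COX7A2 rose by 0.29, COX7A2L by 0.25, COX5A by 0.23 and COX6A1 by 0.21, of which COX6A1 lost its call without SET siRNA library 2. COX4I1 (0.15, adjusted p = 0.113 by limma) and COX5B (0.00) were not called. NDUFA4, counted with complex I by its symbol, also rose in WT-labelled cells (0.13, adjusted p = 0.04 by limma), a call lost in 8 other settings.

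In KO-labelled cells 0 of 12 complex IV members were called, while 37.6% of all entries were. The median log2 change of the 12 was 0.13, and 0.042 without KO-labelled control library 2. Without control library 1, 3 of the 12 were called higher there. The summed FPKM of the 11 subunits was 4064 ± 7.81 with SET siRNA and 3797 ± 212 with control siRNA in KO-labelled cells. WT-labelled cells gave 4115 ± 107 with SET siRNA and 3715 ± 243 with control siRNA. The groups did not overlap in either line, but the highest WT-labelled control library, at 3989 FPKM, lay just under the lowest SET siRNA library, at 3993 FPKM. Over 20 settings of the fit, 5 to 7 members rose and 0 or 1 fell in WT-labelled cells, and 0 to 3 rose and 0 fell in KO-labelled cells.

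**Figure D3:**
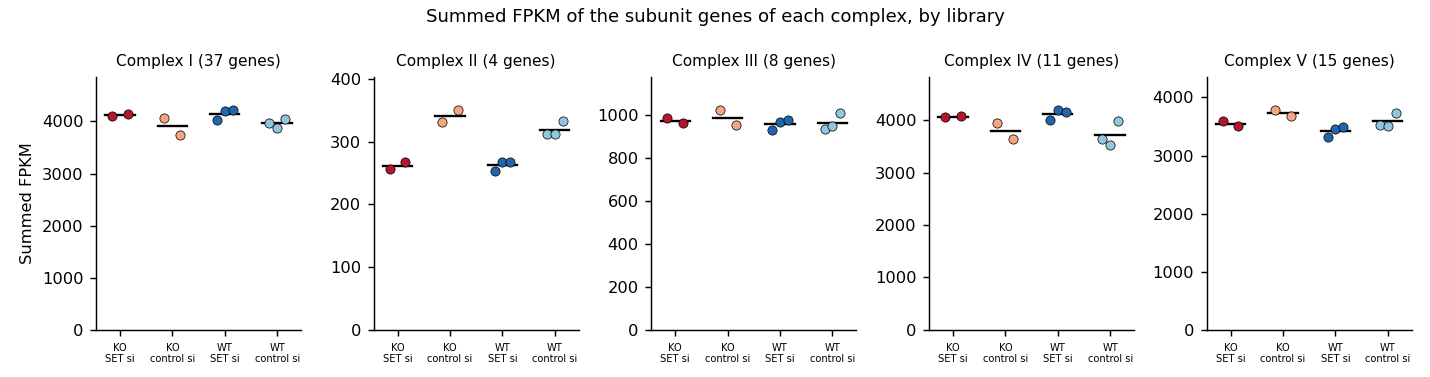
Summed FPKM of the subunit genes of each complex in each library, by line and siRNA, with each y axis starting at 0. Points are libraries and bars are group means, and the clearest gap between SET siRNA and control siRNA is in complex II, at 254 to 268 FPKM against 312 to 350 FPKM. Of the 4 complex II genes SDHB alone was called lower with SET siRNA in the main fit.

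In complex V, 3 of 18 members fell and 0 rose in KO-labelled cells, and 5 fell and 2 rose in WT-labelled cells. The shares that fell, 16.7 and 27.8%, lay near those of all entries, at 17.9 and 24%. Of all entries 19.8 and 30.8% rose. The median log2 changes of complex V were -0.06 in KO-labelled and -0.08 in WT-labelled cells. In WT-labelled cells 8 fell under median-of-ratios and under quantile scaling, and 3 without SET siRNA library 1 or control library 1. Without KO-labelled control library 1 the median in KO-labelled cells was -0.0056, with 4 members lower and 2 higher. ATP5J encodes coupling factor 6, part of the peripheral stalk that holds the catalytic head in place. It had 92.9 and 91.8 FPKM with SET siRNA against 143 and 157 FPKM with control siRNA in KO-labelled cells, a fall of 0.69 (adjusted p = 0.000172 by limma). In WT-labelled cells it had 93.2, 98.1 and 87.9 FPKM with SET siRNA against 123, 116 and 132 FPKM with control siRNA, a fall of 0.40 (adjusted p = 0.000479 by limma). The SET siRNA libraries of both lines lay between 87.9 and 98.1 FPKM, below all control libraries. Within a line the groups did not overlap for 67.5% of all entries tested in KO-labelled and 64.3% in WT-labelled cells.

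The partners of ATP5J in the peripheral stalk were not called lower. ATP5F1, the b subunit, rose in WT-labelled cells to 147, 147 and 146 FPKM with SET siRNA, against 124, 131 and 131 FPKM with control siRNA (0.19, adjusted p = 0.00286 by limma), and had a difference of 0.05 in KO-labelled cells. ATP5O, the subunit named for conferring oligomycin sensitivity, had differences of -0.11 and 0.10, and ATP5H, the d subunit, of -0.12 and -0.03, KO-labelled cells first and none called. GABPA, which encodes a subunit of an ETS-family factor and overlaps ATP5J by 708 bases, rose in WT-labelled cells (0.40, adjusted p = 0.00121 by limma), opposite to ATP5J. In KO-labelled cells GABPA was not called (0.12).

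ATP5S, which is no subunit, fell in both lines. It had 6.16 and 5.79 FPKM with SET siRNA against 10.1 and 10.3 FPKM with control siRNA in KO-labelled cells (-0.68, adjusted p = 5.13e-05 by limma). The values in WT-labelled cells were 6.999, 7.13 and 7.02 FPKM with SET siRNA against 9.27, 9.94 and 10.1 FPKM with control siRNA (-0.42, adjusted p = 0.0001 by limma). The replicates of each group lay close together. Within each line the SET siRNA and control libraries did not overlap, as was the case for 67.5% of all entries tested in KO-labelled and 64.3% in WT-labelled cells.

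The catalytic head of the synthase moved less. ATP5C1, the gamma subunit that turns inside it, fell in KO-labelled cells to 199 and 198 FPKM with SET siRNA, against 230 and 246 FPKM with control siRNA (-0.26, adjusted p = 0.0055 by limma). ATP5A1, the alpha subunit, fell in WT-labelled cells to 250, 255 and 260 FPKM with SET siRNA, against 281, 289 and 286 FPKM with control siRNA (-0.16, adjusted p = 0.00474 by limma). ATP5B, the catalytic beta subunit, had differences of 0.05 and -0.00, and ATP5D and ATP5E, the delta and epsilon subunits, were not called in either line. Of the membrane subunits, ATP5I (-0.25) and the c subunit gene ATP5G2 (-0.17, a call lost in 3 settings) fell and ATP5L (0.20) rose in WT-labelled cells.

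The responses of the lines were compared directly as the response in KO-labelled minus that in WT-labelled cells. Of 81 members 6 were called, or 7.41%, with 1 positive and 5 negative, while 19.1% of all entries were called (8.6% positive, 10.5% negative). After median-of-ratios scaling 2 were positive and 2 negative. COX7A2, a transmembrane subunit of complex IV, had 153 and 155 FPKM with SET siRNA against 155 and 163 FPKM with control siRNA in KO-labelled cells. In WT-labelled cells it had 188, 202 and 184 FPKM with SET siRNA against 156, 154 and 157 FPKM with control siRNA. All 3 WT-labelled SET siRNA libraries stood above the remaining 7 libraries, and the difference of responses was -0.34 (adjusted p = 0.0117 by limma). That call was lost in 1 setting, without KO-labelled SET siRNA library 1 (adjusted p = 0.0532).

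The other called differences were NDUFA5 (-0.57), ATP5S (-0.27), COX7A2L (-0.27), NDUFV2 (-0.26) and COX4NB (0.48). Each was lost in 8 to 13 other settings of the fit. The number of members called depended on single libraries, at 21 without KO-labelled control library 1, 1 without KO-labelled control library 2, and 0 and 1 without KO-labelled SET siRNA library 1 and 2. It was 1, 1 and 3 without WT-labelled SET siRNA library 1, 2 and 3, and 1 and 2 without WT-labelled control library 1 and 2. Without WT-labelled control library 3 it rose, with 3 complex V members called negative against 1 in the main fit. The siRNA responses and the comparisons between the lines share libraries.

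Under control siRNA 35 of 81 members were called between KO-labelled and WT-labelled cells, or 43.2%, with 19 higher and 16 lower, while 47.9% of all entries were called (25.7% higher, 22.2% lower). Under SET siRNA 23 of 81 were called, or 28.4%, with 11 higher and 12 lower, while 48.4% of all entries were called (23.6% higher, 24.8% lower). The median log2 difference of members was 0.03 under control siRNA and 0.00 under SET siRNA. Under control siRNA the count was 18 without KO-labelled control library 2. In the fit on only the groups compared it was 23.

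The same 8 members were called lower in KO-labelled cells under both siRNAs, namely NDUFA9, NDUFA4, NDUFB2, SDHA, UQCRC1, COX4I1, ATP5H and ATP5J2. These 2 comparisons use different libraries, but of the same 2 lines and with 1 estimate of the spread over all 10 libraries. They are therefore not independent repeats. The share of all entries called in the same direction under both siRNAs is not given here, so the count has no background to stand against. SDHA, the flavoprotein that oxidises succinate, had 42.5 and 40.4 FPKM in KO-labelled against 57.7, 57.9 and 61.5 FPKM in WT-labelled cells with SET siRNA (-0.50, adjusted p = 8.14e-05 by limma). With control siRNA it had 47.6 and 42.5 FPKM in KO-labelled against 61.3, 60.2 and 61.2 FPKM in WT-labelled cells (-0.43, adjusted p = 0.000304 by limma). NDUFA9, an accessory subunit beside the quinone site of complex I, had 95.2 and 87.2 FPKM in KO-labelled against 125, 125 and 135 FPKM in WT-labelled cells with SET siRNA (-0.49, adjusted p = 0.000166 by limma). With control siRNA it had 84.4 and 79.3 FPKM in KO-labelled against 113, 113 and 123 FPKM in WT-labelled cells (-0.51, adjusted p = 0.000199 by limma).

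ATP5H differed by -0.52 with SET siRNA and -0.43 with control siRNA, ATP5J2, the f subunit, by -0.41 and -0.38, and COX4I1 by -0.38 and -0.37. NDUFB2 differed by -0.31 with SET siRNA and -0.36 with control siRNA, UQCRC1 by -0.29 and -0.33, and NDUFA4 by -0.25 and -0.15. For COX4I1 this was 412 and 392 FPKM in KO-labelled against 526.6, 516.9 and 531.5 FPKM in WT-labelled cells with SET siRNA. With control siRNA it was 396 and 337 FPKM in KO-labelled against 466, 440 and 518 FPKM in WT-labelled cells. The groups of these 8 members did not overlap under either siRNA, as was the case for 70.2% of all entries tested under SET siRNA and 63.1% under control siRNA. NDUFA9, SDHA, COX4I1, ATP5H and ATP5J2 kept both calls in every setting of the fit. NDUFA4 lost its call under control siRNA in 11 settings, with adjusted p up to 0.153, and UQCRC1 lost its call in 1 setting under each siRNA, without library 2 of the KO-labelled group.

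Another 8 members were called higher in KO-labelled cells under both siRNAs, namely NDUFS1, NDUFS3, NDUFA6, NDUFA10, SDHD, UQCRFS1, ATP5C1 and ATP5O. This count likewise has no background over all entries here. NDUFS1, the largest subunit of complex I, had 51.8 and 51.1 FPKM in KO-labelled against 40.9, 42.5 and 43.3 FPKM in WT-labelled cells with SET siRNA (0.28, adjusted p = 0.0006 by limma). With control siRNA it had 55.2 and 57.3 FPKM in KO-labelled against 40.9, 42.9 and 42.2 FPKM in WT-labelled cells (0.41, adjusted p = 8.09e-05 by limma). NDUFA6 differed by 0.30 with SET siRNA and 0.24 with control siRNA, SDHD by 0.23 and 0.37, ATP5C1 by 0.21 and 0.38, and ATP5O by 0.21 and 0.41. NDUFS1, NDUFA6 and ATP5C1 kept both calls in every setting of the fit. UQCRFS1 lost its call under control siRNA in 10 settings, with adjusted p up to 0.153, and ATP5O and SDHD theirs under SET siRNA in 4 and 3 settings. NDUFS3 lost its call in 1 setting under each siRNA. Complex II thus held SDHA lower and SDHD higher in KO-labelled cells, and its sum differed little between the lines, with ratios of 0.993 with SET siRNA and 1.07 with control siRNA.

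For each member the median log2 difference of up to 30 expressed neighbouring genes on its chromosome was taken, with members left out. Under control siRNA this median was -0.58 around NDUFA9 on chromosome 12, -0.48 around ATP5J2 on chromosome 7, -0.42 around ATP5H on chromosome 17 and -0.27 around COX4I1 on chromosome 16. It was -0.35 around SDHA on chromosome 5, over 16 neighbours near the end of the chromosome. Under SET siRNA the medians were -0.53, -0.43, -0.30, -0.23 and, for SDHA, -0.12. NDUFB2 (0.02), NDUFA4 (0.06) and UQCRC1 (-0.09) had neighbours near 0 under control siRNA.

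Neighbours below -0.2, a limit chosen after the values were seen, surrounded 5 of the 8 members lower under both siRNAs, 0 of the 8 higher ones and 4 of the 65 others. The median of neighbours was 0.33 around NDUFS1, 0.27 around ATP5O, 0.17 around ATP5C1 and 0.15 around SDHD. Over all 8 higher members these medians ran from -0.05 to 0.33 under control siRNA, with a middle value of 0.13. Around the 65 others they ran from -0.27 to 0.33, with a middle value of 0.02. DNA copy number was not measured, and its part in these differences between the lines was not tested.

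**Figure D4:**
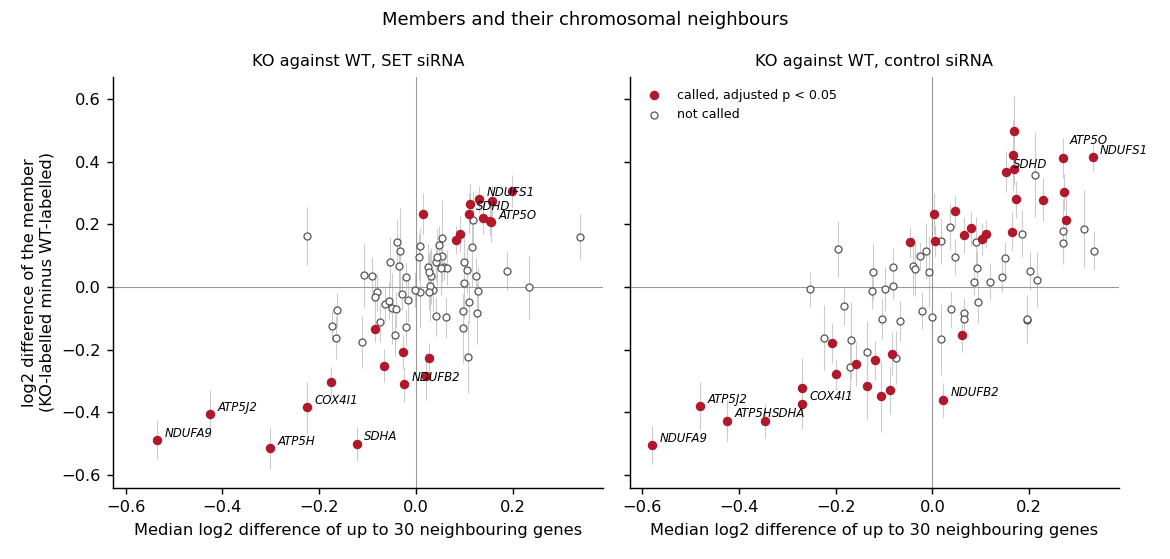
log2 difference of each member, KO-labelled minus WT-labelled cells, against the median log2 difference of up to 30 neighbouring genes, with SET siRNA (left) and control siRNA (right). Filled points were called at an adjusted p below 0.05, grey lines are standard errors, and NDUFA9, ATP5J2, ATP5H, SDHA and COX4I1 lie at the lower left of both panels.

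Genes that build or regulate the chain were read from lists of known function, whose counts stand against 19.8% of all entries higher and 17.9% lower with SET siRNA in KO-labelled cells and 30.8% higher and 24% lower in WT-labelled cells. Of 38 assembly factors, KO-labelled cells had 7 higher and 6 lower and WT-labelled cells 11 higher and 5 lower with SET siRNA. COX19, a copper-binding factor of complex IV, rose in both lines, to 9.01 ± 0.228 FPKM with SET siRNA against 5.31 ± 0.511 FPKM with control siRNA in KO-labelled cells (0.67, adjusted p = 0.000327 by limma). In WT-labelled cells COX19 rose by 0.63. COX10, which makes heme for complex IV, fell by 0.48 in KO-labelled and 0.45 in WT-labelled cells. C8orf38 (NDUFAF6), a complex I assembly factor, fell by 0.36 and 0.66, and NDUFAF1, another, rose by 0.56 in WT-labelled cells and was not called in KO-labelled cells (0.10).

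Between the lines under control siRNA 12 of 38 assembly factors were higher and 5 lower in KO-labelled cells, and under SET siRNA 11 and 5. Of all entries 25.7% were higher and 22.2% lower under control siRNA, and 23.6 and 24.8% under SET siRNA. The largest differences were TTC19 of complex III at 1.07 and the complex IV factors SCO1 at 1.04 and COX10 at 1.02 under control siRNA. Neighbouring genes were taken for the members alone, so whether these differences extend to the surrounding chromosome region was not tested. Among 9 subunits and carriers outside the symbol rule, SET siRNA left 2 higher and 0 lower in KO-labelled cells and 3 higher and 1 lower in WT-labelled cells. NDUFAB1 rose by 0.27 and 0.31 and ETFA, which carries electrons from fatty acid oxidation, by 0.20 and 0.25, KO-labelled cells first. CYC1 fell by 0.32 in WT-labelled cells.

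Of 16 genes of mitochondrial biogenesis and transcription, SET siRNA left 7 higher and 0 lower in KO-labelled cells and 7 higher and 3 lower in WT-labelled cells. TFB2M, a mitochondrial transcription factor, rose by 0.33 and 0.44. The coactivator gene PPRC1 rose in KO-labelled cells (0.54), and GABPA as given above in WT-labelled cells. The 3 that fell in WT-labelled cells were PPARGC1B (-0.23), NRF1 (-0.22) and YY1 (-0.21), with differences of 0.04, 0.02 and -0.04 in KO-labelled cells, none called. Of 14 tricarboxylic acid cycle genes, 1 was higher and 3 lower in KO-labelled cells, 4 higher and 5 lower in WT-labelled cells. CS, citrate synthase, fell in both lines, to 93.9 FPKM with SET siRNA against 131 FPKM with control siRNA in KO-labelled cells (-0.48, adjusted p = 0.000101 by limma). In WT-labelled cells CS averaged 80.3 FPKM with SET siRNA and 118 FPKM with control siRNA (-0.55, adjusted p = 5.02e-06 by limma). IDH2, the mitochondrial NADP-dependent isocitrate dehydrogenase, fell by 0.60 in WT-labelled cells.

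Proteins of the 2 ribosomes served as other large sets of short, highly expressed transcripts. Of 78 mitochondrial ribosomal protein entries tested, 11 were higher and 5 lower in KO-labelled cells and 15 higher and 19 lower in WT-labelled cells, with medians of 0.07 and -0.02. Of 84 cytosolic ribosomal protein entries tested, 20 were higher and 0 lower in KO-labelled cells and 33 higher and 2 lower in WT-labelled cells, with medians of 0.15 and 0.13. Cytosolic ribosomal protein entries include near-identical copies, so single counts there are uncertain.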

How the data were processed

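The data are RNA sequencing of 10 libraries in 4 groups, made from total RNA with a TruSeq kit per the labels' protocols. The submitters' processing notes name Cufflinks 2.0.2, TopHat2 2.0.4 and bcl2fastq 1.8.4. Each deposited file lists FPKM per gene, with an interval and a status per the file headers. Neither build, annotation nor strand setting is stated. FPKM carries no stated depth, and Cufflinks divides reads between overlapping entries by estimate. Its scale is relative within a library.

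The members and lists were chosen with earlier results of these data known. Entries with at least 1 FPKM in at least 2 libraries were tested (14813 of 25593) on log2(FPKM + 1), a scale that understates changes of low genes. One linear model with a mean per group was fitted over every library by limma 3.58.1 (R 4.3.3), with moderated variances that follow a trend on mean level. Benjamini-Hochberg adjustment ran over all entries tested, with calls at an adjusted p below 0.05. The procedure was tested on simulated data. Alternatives were a pseudocount of 0.1, other filters, median-of-ratios and quantile scaling, fewer groups, a replicate block, no trend, array weights, other member limits and each library left out. Neighbours were the 15 nearest entries on either side with a mean of at least 5 FPKM. Named genes were the 4 largest called rises and falls of each comparison, core catalytic subunits, isoform sets, extremes of each complex, non-subunit entries, SET and up to 3 called genes of each list. Other members named by their role in a complex (such as NDUFA8, NDUFB8, NDUFB10, NDUFS4, ATP5F1, ATP5I and ATP5L) were chosen after their values were seen. Promoters matched for 65 members by symbol or older symbol. SDHC and ATP5S are named without a sequence. Python 3.11.15 with numpy 2.4.6, pandas 2.3.3 and matplotlib 3.10.9 did the rest. Some genes that this rule covers are not reported here.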

Additional observations from a re-analysis of the deposited data

Results flagged for a closer look

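For 6 of 81 members, or 7.41%, the interaction test found unlike responses to SET siRNA in the 2 lines (limma, adjusted p below 0.05). Of all entries tested 19.1% were called, a larger share. Values are the response in KO-labelled minus that in WT-labelled cells on the log2 scale. COX7A2 differed by -0.34 (adjusted p = 0.0117), with responses of -0.04 in KO-labelled and 0.29 in WT-labelled cells. COX7A2L differed by -0.27 (adjusted p = 0.0491), with -0.02 in KO-labelled and 0.25 in WT-labelled cells. NDUFA5 differed by -0.57 (adjusted p = 0.0374), with -0.78 in KO-labelled and -0.21 in WT-labelled cells. NDUFV2 differed by -0.26 (adjusted p = 0.05 after rounding), with -0.19 in KO-labelled and 0.07 in WT-labelled cells. ATP5S differed by -0.27 (adjusted p = 0.0401) and fell in both lines, further in KO-labelled cells. COX4NB, which is no respiratory chain subunit, differed by 0.48 (adjusted p = 0.034), with 0.28 in KO-labelled and -0.20 in WT-labelled cells, neither called by itself. None of the 6 kept its call in every setting that was run, and COX7A2 lost its call in 1 of them.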

How the results depend on the processing

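No named member that was called reversed its sign in any setting. Called in every setting were 7 of 11 named members for SET siRNA in KO-labelled cells, 12 of 20 in WT-labelled cells, 0 of 6 for the difference of responses, 11 of 20 between the lines under SET siRNA and 12 of 28 under control siRNA. SDHB, ATP5J and ATP5S were among them for SET siRNA in both lines. Under median-of-ratios scaling the median log2 change of members was 0.010 in KO-labelled cells (complex V -0.085) and -0.040 in WT-labelled cells (complex I -0.039, complex V -0.13). Under quantile normalization it was -0.016 in KO-labelled cells (complex V -0.10), and complex II between the lines under control siRNA was 0.082. The cause of these shifts was not tested. With only the groups compared, and likewise with array weights, 7 members were called in KO-labelled cells and 23 between the lines under control siRNA. Without a filter 1 member was called for the difference of responses. That comparison uses all groups, so a fit on fewer could not be run.

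With each library left out in turn, members called ranged from 7 to 27 in KO-labelled cells, 20 to 31 in WT-labelled cells, 0 to 21 for the difference of responses, 16 to 27 between the lines under SET siRNA and 18 to 38 under control siRNA. The median of members ranged from -0.042 to 0.066 in KO-labelled cells and from -0.067 to 0.038 for the difference of responses.

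Replicate numbers were not taken to pair the samples, since the labels tie them to nothing shared and not every same-numbered pair correlated above 0.1. Deviations of same-numbered libraries correlated at 0.00325 in KO-labelled cells and at -0.0833 to 0.0728 in WT-labelled cells, and 1 of 3 WT-labelled SET siRNA libraries was closest to its own number. Between the lines they correlated at 0.217 and 0.228 for control libraries 1 and 2, the highest values found, and at 0.0436 and 0.0674 for SET siRNA libraries 1 and 2. With a replicate block 15, 29 and 9 members were called in KO-labelled cells, in WT-labelled cells and for the difference, and 28 and 39 between the lines under SET and control siRNA. Depth limits the lowest members, where the fewest implied fragments per library were 141 to 218.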
